A study of Mus musculus with 96 samples.

Results

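The genes described here are those whose mRNA differed between sleep-deprived and control mouse liver at circadian time 8 (CT8). They were chosen by their values in the 4 liver libraries of that time, 2 from sleep-deprived (SD) and 2 from control (CON) mice, with an edgeR quasi-likelihood fit to all 24 liver libraries and a Benjamini-Hochberg adjusted p under 0.05. Of 19708 genes tested, 82 met this rule, and 78 of them were lower in the SD libraries. The fold at CT8 therefore describes how the genes were picked and was not tested again. The 82 genes were tested in libraries that the rule did not use for its means, which were the 20 liver libraries of the 5 other times and the CT8 libraries of kidney, forebrain and cerebellum. The spread between replicates that the rule used was estimated over all 24 liver libraries, so that quantity was shared between the choice and the liver tests. The study reports liver and kidney from the same mice in another series and does not say so for this one. If organs shared mice here, the other organs at CT8 came from the animals that chose the genes.

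All mice were male wild-type C57BL/6 aged 6 to 8 weeks and kept in a 12 h light and 12 h dark cycle, and SD mice were moved by a slowly rotating drum for 10 h of their resting phase with food and water at hand. CON mice were left undisturbed, so forced walking, handling and lost sleep cannot be told apart. Total RNA depleted of ribosomal RNA was sequenced from 4 organs at 6 times, every 4 h from CT4 to CT24, with 2 libraries per organ, condition and time (96 libraries in all). The drum ran from 6 AM to 4 PM, tissues were taken at the circadian times that followed, and the study describes collection in constant darkness (DD), a code that the labels' time tags also carry. The study calls the 2 libraries biological replicates, and p-values measure the spread between such libraries. Values are CPM, each count divided by its library's total after scaling by the trimmed mean of M values (TMM) and set to a common total, and a log2 fold change is SD minus CON.

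An adult liver consists mostly of hepatocytes, nearly all of which rest outside the cell cycle, with a smaller population of resident macrophages (Kupffer cells), other leukocytes, endothelial and stellate cells. Genes for mitosis are switched on together late in the cell cycle, through promoters that often carry CCAAT boxes and short cell-cycle elements. MHC class II molecules present peptides to helper T cells and are made mainly by dendritic cells, B cells and activated macrophages. Their promoters carry an inverted CCAAT box known as the Y box.

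The 4 CT8 libraries held 32688269 to 35646483 counts, against 32031833 to 48851661 over all liver libraries. Hepatocyte markers were abundant in every CT8 library (summed level of 11 genes 94149 and 85579 CPM in CON, 107827 and 112420 CPM in SD), so the tissue matched its label. Antisense genes took 0.885 to 1.04% of the counts at CT8 and 0.738 to 1.05% at the other times, and no CT8 library stood apart by this measure. The log2 TMM factors were 0.0464 and 0.0831 in CON and -0.0568 and -0.0716 in SD. Scaling by library size alone moved the median of all genes at CT8 from 0.02 to -0.11 and that over the other times from 0.00 to -0.13, and 80 of the 82 genes were still called with it.

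Mitosis and chromosome segregation made up the largest set, with 24 genes, all lower in SD at CT8 (median log2 fold change -1.91, against 0.02 over all genes). The sets used here were named after the values had been seen. Before any value, the DNA upstream of 3 of these genes is shown as an example. In the 250 bases before the RefSeq start (GRCm38.p6), CCAAT or its complement ATTGG is in capitals, as are TTTGAA and TTTAAA, the core letters of the cell-cycle homology region, on either strand. The windows are chr10:69352913-69353162 for Cdk1, chr4:118437344-118437593 for Cdc20 and chr7:135716380-135716629 for Mki67, all on the minus strand. GENCODE places the Cdk1 and Cdc20 starts slightly upstream of the RefSeq starts, so the last 26 and 9 bases of those windows lie in their annotated first exons.
Cdk1: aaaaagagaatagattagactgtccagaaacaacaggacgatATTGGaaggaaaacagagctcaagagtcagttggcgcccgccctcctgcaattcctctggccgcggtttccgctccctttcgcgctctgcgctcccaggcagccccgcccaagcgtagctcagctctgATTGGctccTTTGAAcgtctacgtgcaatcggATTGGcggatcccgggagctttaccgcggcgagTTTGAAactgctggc
Cdc20: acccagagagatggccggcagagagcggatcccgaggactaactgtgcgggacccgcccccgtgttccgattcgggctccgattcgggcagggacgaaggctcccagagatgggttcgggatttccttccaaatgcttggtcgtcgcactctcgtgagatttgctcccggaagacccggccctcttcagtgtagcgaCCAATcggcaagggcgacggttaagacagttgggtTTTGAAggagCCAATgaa
Mki67: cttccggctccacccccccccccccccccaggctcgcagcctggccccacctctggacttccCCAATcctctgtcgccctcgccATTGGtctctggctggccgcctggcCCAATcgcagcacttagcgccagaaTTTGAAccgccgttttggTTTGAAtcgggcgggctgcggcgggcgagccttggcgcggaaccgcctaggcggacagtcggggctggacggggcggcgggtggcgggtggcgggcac

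RefSeq windows were found for 20 of the 24 mitotic genes. CCAAT on either strand was present in 16 of the 20, against 35.8% of the 11884 windows of genes tested at CT8, and 10 of the 20 held it at least 2 times, against 12.6%. TTTGAA or TTTAAA was present in 7 of the 20, all of which also held CCAAT, against 18.9% for either element and 7.07% for both kinds together. The 3 windows shown are among 6 of the 20 that held CCAAT at least 2 times with either element (2.24% of windows of genes tested). They are thus not typical of the set, and the windows of Anln, Knl1, Nusap1 and Tacc3 held none of these letters. Among all 63 genes of the 82 that had a window, 30 held CCAAT, and 16 of these were mitotic. These are matches of letters and do not show binding.

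Cdk1, the kinase that drives entry into mitosis, was at 22.1 and 8.99 CPM in CON and 4.32 and 5.09 CPM in SD at CT8. Both SD libraries lay below both CON libraries, and CON replicate 1 stood far above its partner. Mki67, which coats mitotic chromosomes and is used as a proliferation marker, was at 54.4 and 33.1 CPM in CON and 9.19 and 17.6 CPM in SD. Cdc20, the activator of the anaphase-promoting complex, was at 35.7 and 11.6 CPM in CON and 4.32 and 6.90 CPM in SD. In each of these genes the groups did not overlap, and the CON replicates differed from each other by more than the SD replicates in CPM.

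The largest differences of the whole set were in Depdc1a (log2 fold change -2.76 ± 0.51, SE), the kinetochore and nuclear matrix protein gene Cenpf (-2.65 ± 0.49) and the kinesin gene Kif18b (-2.63 ± 0.43). Depdc1a was at 4.86 and 2.12 CPM in CON and 0.350 and 0.675 CPM in SD, and Cenpf at 20.4 and 10.0 against 1.61 and 3.25 CPM. The spindle checkpoint and kinetochore genes Bub1 (-2.18) and Knl1 (-1.97), the cohesin guardian Sgo2a (-2.18) and the spindle assembly factors Tpx2 (-2.07) and Aspm (-2.20) lay in the same range. The genes of the midzone and cleavage furrow, Prc1, Racgap1, Kif20a, Kif23 and Anln, lay between -1.86 and -1.64. The smallest differences of the set were in Ncapd2, a condensin subunit (-1.19), Incenp, the scaffold of the chromosomal passenger complex (-1.25), and the phosphatase gene Cdc25b (-1.29). Hist1h1b and Hist1h2ak, histone genes transcribed mainly in S phase, were lower with a set median of -1.49, Hist1h1b being at 21.1 and 21.8 CPM in CON and 6.19 and 9.32 CPM in SD. Histone copies are nearly identical and reads aligning to several places were removed, so their levels are uncertain.

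The 3 MHC class II genes H2-Aa, H2-Ab1 and H2-Eb1 encode the chains of I-A and the beta chain of I-E. RefSeq windows were found for H2-Aa and H2-Eb1, and they are shown with CCAAT and ATTGG in capitals. The windows are chr17:34287824-34288073 (minus strand) and chr17:34305617-34305866 (plus strand). Both held ATTGG, and H2-Eb1 held CCAAT as well.
H2-Aa: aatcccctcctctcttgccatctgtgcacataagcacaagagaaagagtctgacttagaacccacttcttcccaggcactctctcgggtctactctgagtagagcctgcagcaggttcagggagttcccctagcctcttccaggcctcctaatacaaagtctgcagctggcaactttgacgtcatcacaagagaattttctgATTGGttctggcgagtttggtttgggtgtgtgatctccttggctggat
H2-Eb1: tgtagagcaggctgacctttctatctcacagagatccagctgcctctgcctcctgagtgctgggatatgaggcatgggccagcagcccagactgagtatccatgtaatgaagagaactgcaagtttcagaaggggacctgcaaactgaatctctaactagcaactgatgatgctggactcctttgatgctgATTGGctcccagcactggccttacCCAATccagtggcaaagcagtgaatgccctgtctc

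H2-Aa was at 90.4 and 212 CPM in CON and 35.1 and 54.7 CPM in SD at CT8. H2-Ab1 was at 77.7 and 198 CPM in CON and 31.5 and 47.1 CPM in SD. H2-Eb1 was at 68.8 and 178 CPM in CON and 26.9 and 39.4 CPM in SD. In all 3 genes both SD libraries were below both CON libraries (set median log2 fold change -1.81), and CON replicate 2 was the high one, the reverse of the mitotic genes.

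Leukocyte surface receptors formed a set of 11 genes, all lower in SD (median -1.30). Ptprc, which encodes the pan-leukocyte phosphatase CD45, was at 65.4 and 114 CPM in CON and 33.6 and 47.9 CPM in SD. The integrin genes Itgb2 (-1.05) and Itgax (-1.30), the Toll-like receptor genes Tlr2 (-1.49) and Tlr9 (-1.77), and the signal-regulatory receptor gene Sirpa (-1.09) were lower as well. The set also held Ighm, the heavy chain of IgM (-1.19), and Cd244a and Slamf7, receptors of natural killer and other cells (-2.20 and -1.65). The lowest level among them was that of Cd244a in SD, at 0.234 and 0.644 CPM.

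The 13 intracellular leukocyte factors were lower too (median -1.08). Coro1a, an actin regulator of leukocytes, was at 20.8 and 36.5 CPM in CON and 8.35 and 12.6 CPM in SD. Btk, the kinase downstream of the B cell receptor, was at 4.56 and 6.13 CPM in CON and 1.55 and 2.30 CPM in SD. The set included Dock2 and Nckap1l, which act on Rac and actin, Inpp5d, the SHIP1 phosphatase, Ncf4, a subunit of the phagocyte NADPH oxidase, and the lymphoid transcription factor Ikzf1, with differences from -0.92 to -1.36. In all 13 genes CON replicate 2 was above CON replicate 1.

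Among chemokine and cytokine genes, Cxcl1, a neutrophil attractant, had the largest difference (-2.38 ± 0.44), at 10.8 and 14.5 CPM in CON and 2.13 and 2.73 CPM in SD. The chemokine receptor gene Ccr2 (-1.40), Csf2rb (-0.91) and its paralog Csf2rb2 (-1.02) belonged to the same set of 5. Csf2rb encodes the beta chain shared by the IL-3, IL-5 and GM-CSF receptors. The Csf2rb paralogs are similar in sequence, so reads may be lost from both.

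Marker lists of leukocytes, in which Ighm is the 1 tested gene called, were lower with these genes. At CT8 47.6% of all genes were lower in SD, 52.4% were higher and 12.3% had an unadjusted p under 0.05, which is the background of each list count at CT8 given here. Of 10 Kupffer and macrophage markers tested, 10 were lower in SD at CT8 with 0 called by edgeR, 10 at an unadjusted p under 0.05 and 1 called by DESeq2, and their summed level was 1196 and 1876 CPM in CON and 761 and 1079 CPM in SD. Of 14 lymphocyte markers 14 were lower with 1 called (Ighm), at 49.8 and 61.1 CPM in CON and 19.4 and 33.0 CPM in SD, and of 6 neutrophil markers 6 were lower with 0 called (2 at an unadjusted p under 0.05, 0 by DESeq2), at 8.95 and 13.3 CPM in CON and 3.44 and 7.18 CPM in SD. The defining markers Cd68 and Igkc had no count in any of the 4 libraries. Whether such zeros, here and in the lists below, reflect absent mRNA or reads lost in counting was not tested. Of 11 hepatocyte markers tested 10 were higher in SD at CT8 (median log2 fold change 0.29), with 0 called by edgeR. Of the 11 markers 5 had an unadjusted p under 0.05 at CT8. Over the other times 8 were called higher (6.63% of all genes). In bulk tissue, fewer cells of a type and less RNA per cell cannot be told apart, and the part of cell number in the differences was not tested.

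The remaining 24 genes were a mixed set of 3 matrix and filament, 8 channel and transporter, and 13 metabolic or signalling genes. Steap4, a metalloreductase of the hepatocyte acute phase response, was at 388 and 293 CPM in CON and 128 and 154 CPM in SD, and it had the smallest p of all genes at CT8. Hk2 (-1.17) and Pkm (-0.73), glycolytic enzyme genes that hepatocytes express little, the intermediate filament gene Vim (-0.98) and the proteoglycan gene Vcan (-1.77) were lower. Ptpn1, a phosphatase that acts on the insulin and leptin receptors, was at 74.7 and 70.6 CPM in CON and 44.2 and 44.3 CPM in SD, with the groups well apart and close replicates.

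Only 4 of the 82 genes were higher in SD at CT8. Shank2, a scaffold protein gene best known at synapses, was at 41.9 and 47.0 CPM in CON and 79.5 and 73.0 CPM in SD. Lrat, which makes retinyl esters in stellate cells, was at 6.96 and 3.73 CPM in CON and 10.2 and 11.7 CPM in SD, and the levels of Slc25a21, a mitochondrial oxodicarboxylate carrier gene, were 7.79 and 8.82 against 11.97 and 13.6 CPM. All 4 had both SD libraries above both CON libraries. Lrat was the 1 gene called among 9 stellate and fibroblast markers tested. Of these 9 markers 6 were higher and 3 lower in SD at CT8 (52.4% of all genes higher), with a median of 0.07. Over the other times the median of these markers was 0.05.

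The share of all genes called at CT8 was 0.416%, with 0.396% lower and 0.0203% higher in SD, and folds of the 82 genes ran from 1.54 to 6.79. All 82 had groups that did not overlap at CT8, against 43.1% of all genes tested in either direction and 19.8% with SD below CON, and nothing was read from that count because the rule used the same values. Just inside the threshold lay Abr (adjusted p by edgeR 0.0486), then Vcan and Trpv2, whose values round to 0.05, and just outside it Gm30835 (0.0502), Ckap4 (0.0509) and Cyp4f18 (0.0512). Abr was at 18.3 and 26.1 CPM in CON and 14.2 and 13.5 CPM in SD, and Ckap4 at 15.6 and 16.05 against 9.78 and 9.57 CPM. In a fit of the 4 CT8 libraries alone, with the spread estimated from them, 0 genes were called (2032 at an unadjusted p under 0.05), whereas DESeq2 on all 24 liver libraries still called all 82 among its larger number.

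**Figure D1:**
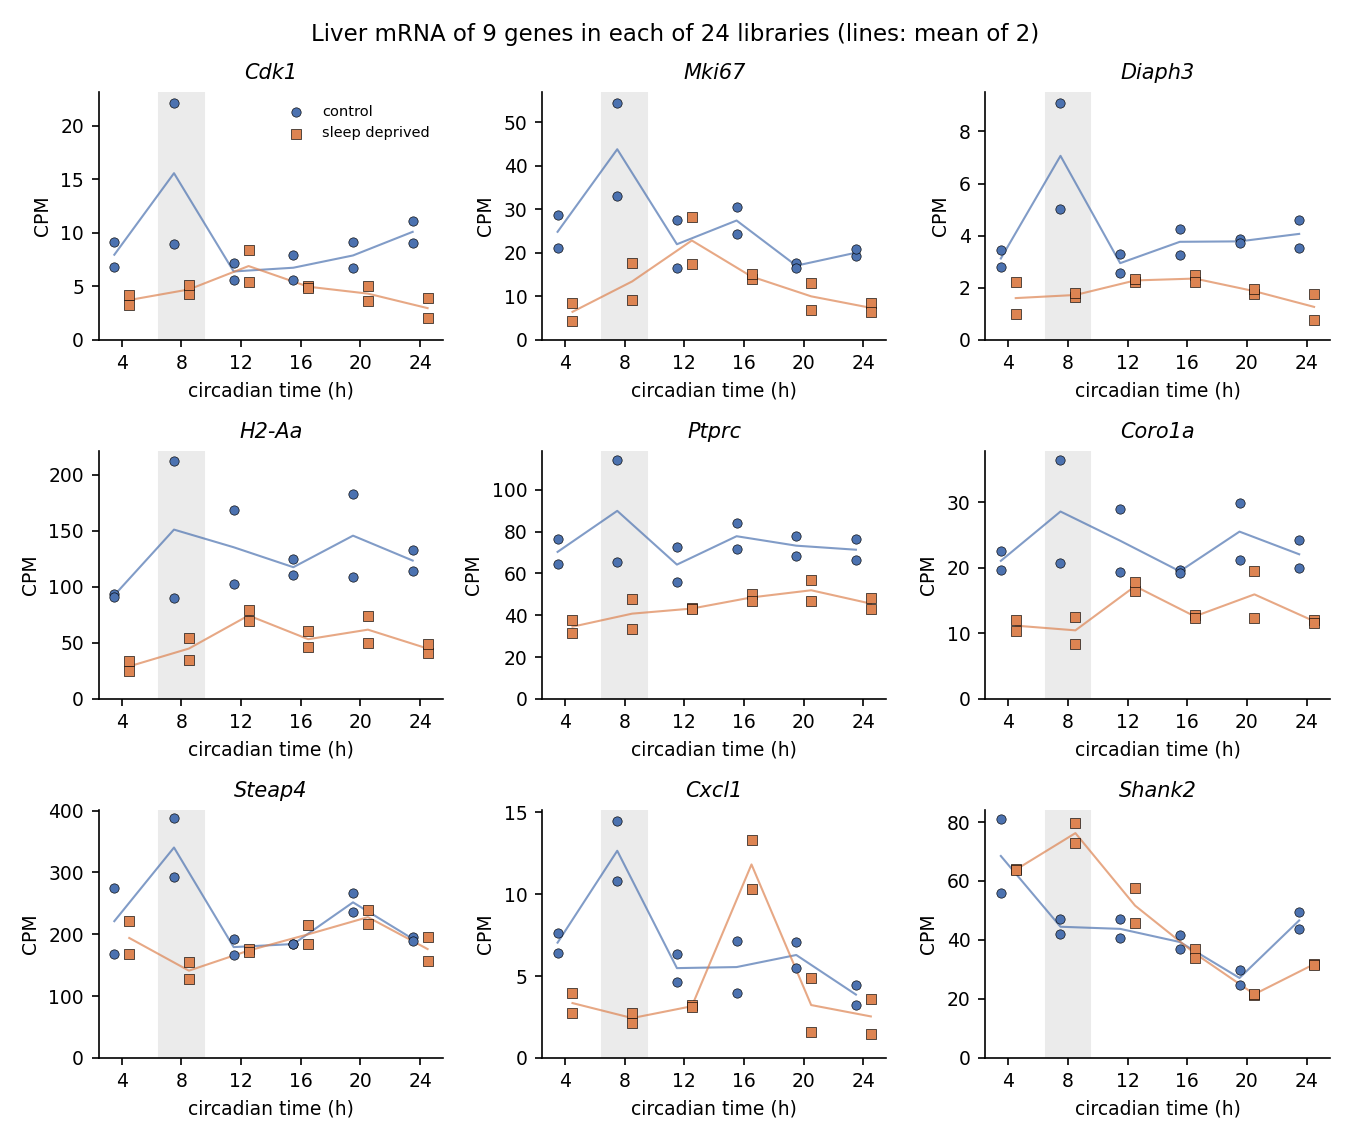
CPM (vertical axis, from 0) of 9 genes against circadian time in hours in the 24 liver libraries; circles are control and squares sleep-deprived libraries, lines join the means of 2, and grey marks CT8. The sleep-deprived libraries of Diaph3, a formin gene, and of H2-Aa lie below the control libraries at every time, Cdk1 and Mki67 overlap at CT12, and Steap4, Cxcl1 and Shank2 differ mainly at CT8 or change direction.

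The 2 CON libraries of CT8 were high in different genes. For 23 of the 24 mitotic genes CON replicate 1 was above CON replicate 2 (median log2 ratio 1.10), and for the same number it was the highest of all 24 liver libraries. CON replicate 2 was above replicate 1 for 53 of the 82 genes and the highest of the 24 libraries for 40 of them. Genes picked for a difference at CT8 tend to have a high CON library there, so these counts are descriptions, given without the share over all genes. The summed level of the 24 mitotic genes was 386 and 192 CPM in the 2 CON libraries of CT8, and 110 to 163 CPM in the 10 CON libraries of the other times. The summed level of the 3 MHC class II genes was 237 and 588 CPM at CT8 and 244 to 505 CPM in those 10 libraries.

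For all 24 mitotic and all 3 MHC class II genes both SD libraries of CT8 lay within the range of the 10 other SD libraries, and over all 82 genes this held for 61. It held for 5 of the 13 intracellular leukocyte factors, and for 10 of these 13 and 34 of the 82 an SD library of CT8 was among the lowest 2 of the 24 libraries. Both CON libraries of CT8 lay above all 10 other CON libraries for 21 genes, of which 14 were mitotic. Lrat stood out the other way, its 2 CON libraries of CT8 (6.96 and 3.73 CPM) being below all 10 other CON libraries, which ran from 9.26 to 14.9 CPM. Steap4 was one of the 21, its CON libraries at CT8 (388 and 293 CPM) being above the other CON libraries (166 to 274 CPM, median 190 CPM). The counts of 61, 34 and 21 genes were shaped by the choice at CT8. They are given without a share over all genes and are descriptions.

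**Figure D2:**
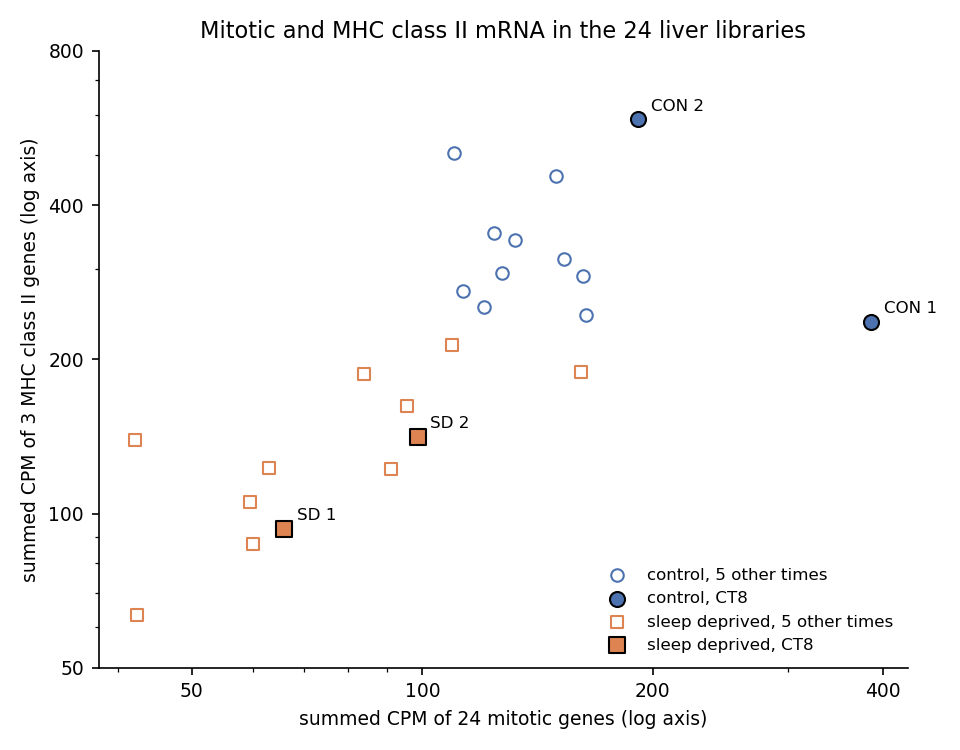
Summed CPM of the 24 mitotic genes (horizontal, log axis) and the 3 MHC class II genes (vertical, log axis) in each liver library; filled symbols are the 4 libraries of CT8. CON replicate 1 of CT8 is the highest library for mitotic genes (386 CPM) and CON replicate 2 the highest for MHC class II (588 CPM), while both sleep-deprived libraries of CT8 lie among the other sleep-deprived libraries.

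Leaving out a CON library changed the size of the CT8 difference in opposite ways. Without CON replicate 1 the median of the mitotic genes was -1.34, and without CON replicate 2 it was -2.36. The median of the other 58 genes was -1.34 without CON replicate 1 and -0.91 without CON replicate 2. All 78 genes stayed lower whichever library was left out, but only 58 of the 82 were still called without CON replicate 1, 24 without CON replicate 2, 12 without SD replicate 2 and 0 without SD replicate 1.

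Whether these genes responded at the other times was asked in the 20 other liver libraries, with time as a term in the fit. In SD mice each circadian time was also a different delay after the drum session. Circadian time and hours of recovery therefore cannot be told apart in SD. Of the 82 genes, 73 were called by edgeR at an adjusted p under 0.05, 72 lower and 1 higher in SD, where 13.4% of the 19569 genes tested were called (6.77% lower and 6.63% higher). The direction was that of CT8 for 81 of the 82 genes, against 66.3% of all genes. The difference was smaller than at CT8 for all 82 genes (median -0.66, against -1.29 at CT8), in a set that was picked for its size at CT8. With library sizes alone, only 7.96% of all calls at the other times were higher in SD, against 49.5%, and the count of the 82 genes called was 77.

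MHC class II genes had the largest median difference of the 9 sets at the other times (-1.31). The 10 CON libraries of H2-Aa ran from 91.3 to 183 CPM (median 113) and the 10 SD libraries from 24.5 to 79.4 CPM (median 49.3), so that the groups did not overlap. Its log2 fold change was -1.27 ± 0.12 (SE), and those of H2-Ab1 and H2-Eb1 were -1.31 ± 0.14 and -1.35 ± 0.13 (adjusted p by edgeR 1.6e-05 for H2-Aa and H2-Eb1 and 3.6e-05 for H2-Ab1). Groups were likewise apart in Ccr2, Slamf7, Dock2, Inpp5d, Nckap1l, Diaph3, Vim and Rgs2, an inhibitor of G protein signalling. These 11 of the 82 compare with 0.157% of all genes that had all 10 SD libraries below all 10 CON libraries.

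All 11 surface receptors and all 13 intracellular factors of leukocytes were called lower at the other times (medians -0.68 and -0.56). Ptprc ran from 55.7 to 84.0 CPM (median 72.1) in CON and from 31.3 to 57.0 CPM (median 45.0) in SD, with a log2 fold change of -0.68 ± 0.07. Ccr2, the receptor that brings monocytes out of the marrow, ran from 9.46 to 15.7 CPM in CON and from 4.18 to 9.03 CPM in SD (-0.95 ± 0.12). The ranges of Ptprc met only at their edges, and those of Ccr2 did not meet.

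Of the 24 mitotic genes 22 were called lower at the other times (median -0.88), and the other 2 missed the threshold at edgeR adjusted p of 0.0547 (Kif20a) and 0.0599 (Depdc1a). Cdk1 ran from 5.54 to 11.1 CPM (median 7.56) in CON and from 2.01 to 8.35 CPM (median 4.54) in SD, a log2 fold change of -0.80 ± 0.19. Mki67 ran from 16.4 to 30.5 CPM (median 20.9) in CON and from 4.43 to 28.3 CPM (median 10.7) in SD (-0.99 ± 0.20). The groups overlapped through both SD libraries of CT12 in Mki67 and through replicate 2 of CT12 alone in Cdk1. Cdc20 was called (-0.66 ± 0.21), but its call was lost in 16 of 20 fits that each left out 1 library.

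**Figure D3:**
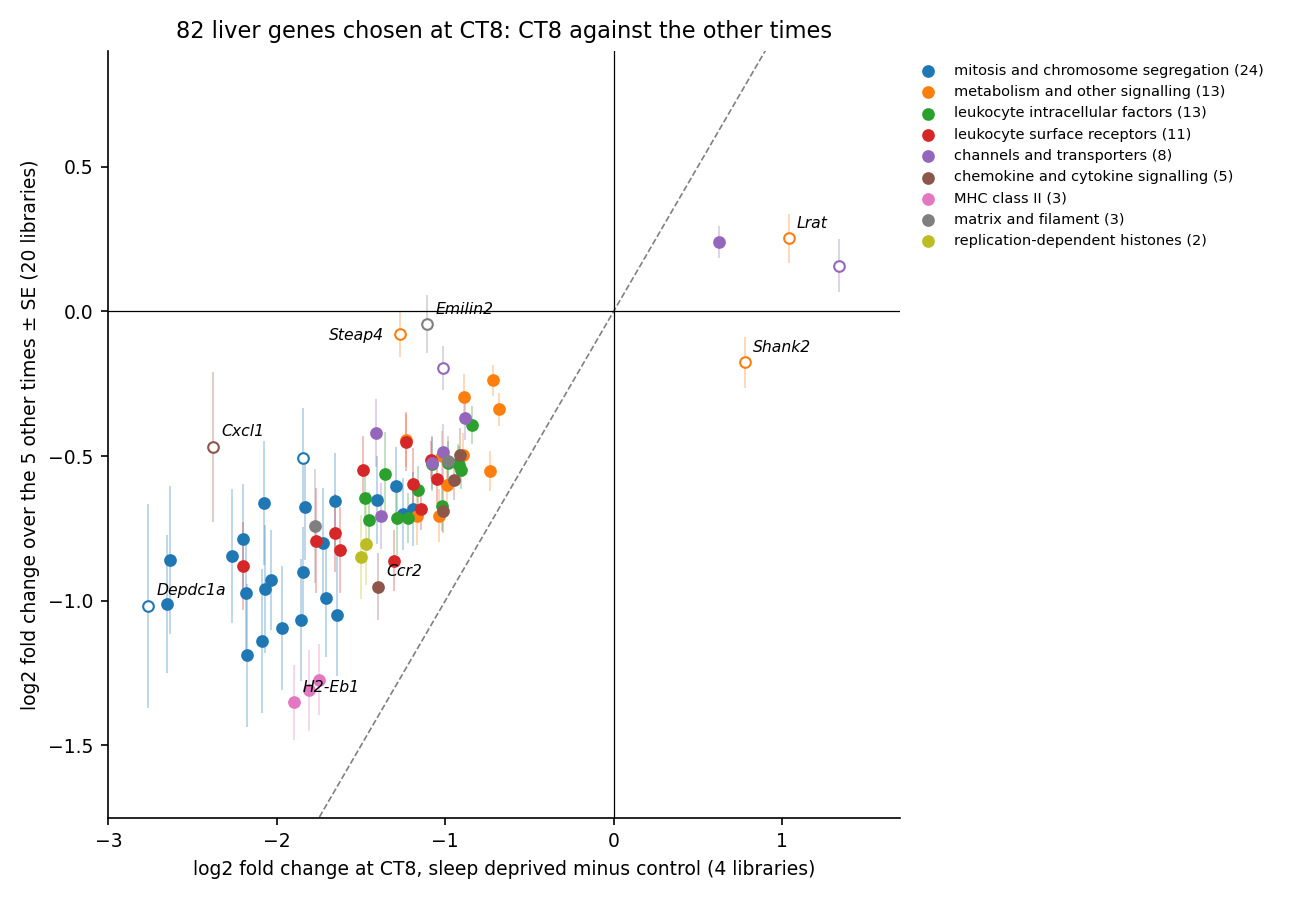
Log2 fold change of each of the 82 genes at CT8 (horizontal, 4 libraries) and over the 5 other times (vertical, with SE, 20 libraries), coloured by the set of the gene; filled points were called at the other times and open points were not, and the dashed line marks equal values. All 82 points lie nearer to 0 on the vertical axis than on the horizontal axis, and Shank2 lies on the opposite side of 0.

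The 9 genes not called at the other times included 3 of the 4 that were higher at CT8. Steap4 had a log2 fold change of -0.08 ± 0.08 over the other times (adjusted p by edgeR 0.571), with 166 to 274 CPM in CON and 157 to 239 CPM in SD, and its groups overlapped. Cxcl1 had -0.47 ± 0.26 (0.248) and Emilin2, an extracellular glycoprotein gene, -0.05 ± 0.10 (0.822). Atp11a, a phospholipid flippase gene, had -0.20 ± 0.08 (0.0907).

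Shank2 had a log2 fold change of -0.18 ± 0.09 over the other times (adjusted p by edgeR 0.193) and Lrat 0.25 ± 0.08 (0.0511). Slc25a21, the 1 gene called higher, had 0.24 ± 0.05, with 8.34 to 11.3 CPM in CON and 10.7 to 13.7 CPM in SD. The ranges of Slc25a21 overlapped in part, and those of Shank2 almost wholly (24.6 to 81.1 CPM in CON and 21.4 to 63.9 CPM in SD).

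The response was uneven over the 5 times, which in SD mice were also different delays after the drum session. At CT4, 24 of the 82 genes were called by edgeR (0.332% of all genes), at CT24 17 (0.47%), and at CT12, CT16 and CT20 0 (0% each). At an unadjusted p under 0.05 the counts were 73 at CT4 (9.31% of all genes), 19 at CT12 (7.49%), 51 at CT16 (13.7%), 49 at CT20 (8.29%) and 72 at CT24 (13.2%). The counts called at single times depended on the tool, DESeq2 giving 52 at CT4 and 44 at CT24. Each time rests on 2 libraries per condition.

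Of the 82 genes 80 were lower in SD at CT4 (51% of all genes), 66 at CT12 (48.6%), 76 at CT16 (46.2%), 78 at CT20 (49.8%) and 79 at CT24 (50.6%). CT12 was thus the time with the fewest genes lower and the fewest at an unadjusted p under 0.05.

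The mitotic genes differed from time to time. Their median log2 fold change was -1.41 at CT4, -0.04 at CT12, -0.62 at CT16, -0.68 at CT20 and -1.52 at CT24. All 24 were lower in SD at each time except CT12, where 12 were lower and 12 higher. Their summed level in the 2 SD libraries of CT12 was 109 and 161 CPM, and 42.2 to 95.6 CPM in the 8 SD libraries of the other 4 times. The CON libraries at CT12 had 113 and 149 CPM, within the range of CON at the other times.

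The MHC class II genes were lower at every time, with medians of -1.74, -0.86, -1.17, -1.44 and -1.46 in order from CT4 to CT24. In H2-Aa both SD libraries were below both CON libraries at each of the 6 times. The surface receptors and intracellular factors of leukocytes kept one direction at 5 of 5 times in 11 of 11 and 13 of 13 genes. Over all 82 genes the direction of CT8 was kept at 5 of 5 times in 62 and at 4 of 5 in 19. The share of all genes that kept their direction is not given, so these counts are descriptions.

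**Figure D4:**
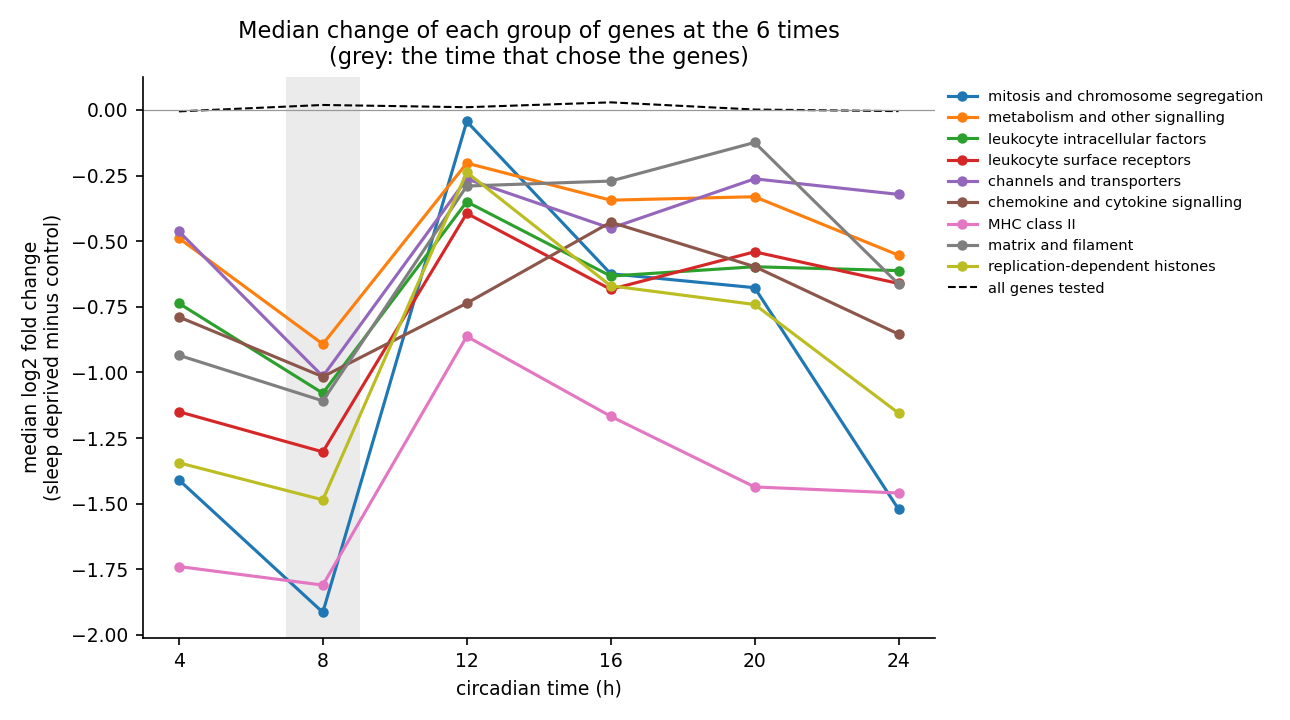
Median log2 fold change of each set of genes (vertical axis, sleep deprived minus control) at the 6 circadian times in hours, with the median of all genes tested as a dashed line. The mitotic genes move from -1.41 at CT4 to -0.04 at CT12 and -1.52 at CT24, whereas the MHC class II genes stay between -1.74 and -0.86 at these times.

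A test of CT8 against the mean of the other times called 0 genes by edgeR (15 by DESeq2), with 873 of 19708 (4.43%) at an unadjusted p under 0.05. Of the 82 genes 55 were among the latter, but the CT8 value that chose them enters this difference, so the count is a description. Few of the 82 genes were called for a change over the day in control libraries of the 5 other times. A missing call does not show a steady level. By edgeR 4 of the 82 were called for time of day in CON, where 12.5% of all genes were, and they included Shank2 (adjusted p 0.00111), Nfxl1 (0.000802) and Gm8995 (0.0424). None of the 24 mitotic genes was among them.

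Levels of Shank2 in CON were highest at CT4 and lowest at CT20, with 81.1 and 55.9 CPM at CT4, 29.6 and 24.6 CPM at CT20 and 43.6 and 49.6 CPM at CT24. At CT8 its SD libraries (79.5 and 73.0 CPM) were near the CT4 levels of both conditions (55.9 to 81.1 CPM), and the CON libraries were near those of CT12 (47.0 and 40.5 CPM).

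In kidney at CT8 the same genes lay in the direction of liver more often than not. Kidney labels carry a conflict, since titles and tags disagree for 20 kidney libraries, and both libraries titled SD at CT8 are tagged as controls of another time. Titles were used here, and every kidney direction rests on them. Of 81 genes tested 68 were lower in the libraries titled SD (49.8% of all genes) and 1 was called by edgeR (0.00929% of all), namely Coro1a, at 20.6 and 29.8 CPM in CON and 9.60 and 12.4 CPM in SD (log2 fold change -1.19 ± 0.16, adjusted p 0.0322). The median was -0.41, and 40 genes had an unadjusted p under 0.05 (8.05% of all genes).

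By set, the kidney medians were -1.78 for MHC class II, -1.04 for histones, -0.72 for leukocyte surface receptors, -0.56 for intracellular factors and -0.36 for mitosis. H2-Ab1 was at 149 and 433 CPM in kidney CON and 50.9 and 63.8 CPM in SD (-2.34 ± 0.38, adjusted p by edgeR 0.0549). Cdk1 was at 6.71 and 5.68 CPM in CON and 6.29 and 3.03 CPM in SD, and its groups overlapped. The kidney call rested on the tool and on single libraries: DESeq2 called 13 of the 82, and 0 to 12 were called when a library was left out.

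In forebrain 0 of 80 genes were called by edgeR (0% of all genes), 43 were lower (50.8% of all genes) and 9 had an unadjusted p under 0.05 (4.41% of all genes). DESeq2 called 16 genes of the whole forebrain table. In cerebellum 4 of 74 genes were called (10.3% of all genes), Kif20a, Prc1, Spn and Mki67, all lower, 36 of the 74 were lower (50.6% of all genes) and their median was 0.03. The cerebellum calls rested on single libraries. In all, 2281 cerebellum genes were called, 12712 without CON replicate 2 and 0 without any other CT8 library, and 47 of the 74 were lower without CON replicate 1 and 24 without CON replicate 2.

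The same pathways were also read from lists that were drawn up with earlier results of these data known. Some lists include genes chosen at CT8, and every list gene called by edgeR at CT8 is such a gene. For these lists the counts and medians, at CT8 and at the other times, partly restate the chosen genes. Counts of list genes called at the other times stand against 6.77% of all genes called lower and 6.63% called higher. Of 31 mitosis and replication genes tested, all were lower in SD at CT8, with 8 called there and 23 called lower at the other times (medians -1.64 and -0.77). Ccnb1, the cyclin partner of Cdk1, lay outside the threshold at CT8 (22.3 and 6.24 CPM in CON, 0.642 and 3.77 CPM in SD, adjusted p by edgeR 0.0592). Of 8 MHC class II list genes, 3 were called at CT8 and all 8 at the other times (medians -1.47 and -1.11). Cd74, the invariant chain, was at 171 and 453 CPM in CON and 76.7 and 110 CPM in SD, just outside the threshold (0.0548).

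Interferon response genes were lower at CT8 in 25 of 25 cases (47.6% of all genes) with 0 called by edgeR (15 at an unadjusted p under 0.05, against 12.3% of all genes, and 4 by DESeq2), and 19 of 25 were called lower at the other times (median -0.62 at both). Irf9, Isg15 and Gbp6 of the interferon list had no count in any CT8 library and were not tested. Cxcl9, an interferon-gamma induced chemokine, was at 26.2 and 51.4 CPM in CON and 11.8 and 15.5 CPM in SD at CT8, and fell by 0.92 ± 0.18 on the log2 scale over the other times. MHC class I genes were lower in 8 of 8 cases (median -0.44), with 0 called at CT8 (5 at an unadjusted p under 0.05, 1 by DESeq2) and 4 at the other times. Immediate early genes were lower in 18 of 19 cases at CT8 (median -0.51) with 0 called (6 at an unadjusted p under 0.05, 2 by DESeq2), and at the other times 3 were called lower and 1 higher.

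Cytochrome P450 and bile acid genes were higher in 27 of 32 cases at CT8 (52.4% of all genes, list median 0.38) with 0 called by edgeR (14 at an unadjusted p under 0.05, against 12.3% of all genes, and 2 by DESeq2), and 12 were called higher and 2 lower at the other times (median 0.24). Genes of PPAR-alpha, fasting and ketogenesis were higher in 22 of 27 cases (median 0.27) with 0 called (7 at an unadjusted p under 0.05, 0 by DESeq2), and 13 were called higher at the other times. Cyp4a14, a fatty acid hydroxylase and PPAR-alpha target, was at 87.6 and 56.8 CPM in CON and 392 and 288 CPM in SD at CT8 (log2 fold change 2.24 ± 0.68), and at the other times it had 0.72 ± 0.39 (adjusted p 0.237).

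Acute phase genes, made by hepatocytes under inflammatory signals, were lower in 21 of 25 cases at CT8 (median -0.39) with 1 called, Steap4. At the other times the median was 0.27, with 8 called higher and 0 lower. For 13 of the 25 the difference between CT8 and the other times had an unadjusted p under 0.05, against 4.43% of all genes, and for 0 an adjusted one. Saa2, a serum amyloid gene, was at 74.4 and 102 CPM in CON and 6.83 and 24.6 CPM in SD at CT8, and had 0.36 ± 0.45 over the other times. The CT8 groups of Saa2 did not overlap, and its SD replicates were far apart.

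Cholesterol synthesis genes were higher in 23 of 23 cases at CT8 (52.4% of all genes, list median 0.34) with 0 called by edgeR (5 at an unadjusted p under 0.05, against 12.3% of all genes, and 2 by DESeq2), against a median of -0.08 at the other times with 1 called in each direction. Sc5d, which acts late in sterol synthesis, was at 541 and 624 CPM in CON and 762 and 947 CPM in SD at CT8 (0.55 ± 0.15), and had -0.10 ± 0.06 over the other times. Of 18 core clock genes tested 14 were higher at CT8 (median 0.25) with 0 called (2 at an unadjusted p under 0.05, a share near that of all genes, and 0 by DESeq2), Dbp having no count in any library of CT8. Bhlhe40, a clock repressor, was at 69.8 and 58.0 CPM in CON and 160 and 106 CPM in SD.

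**Figure D5:**
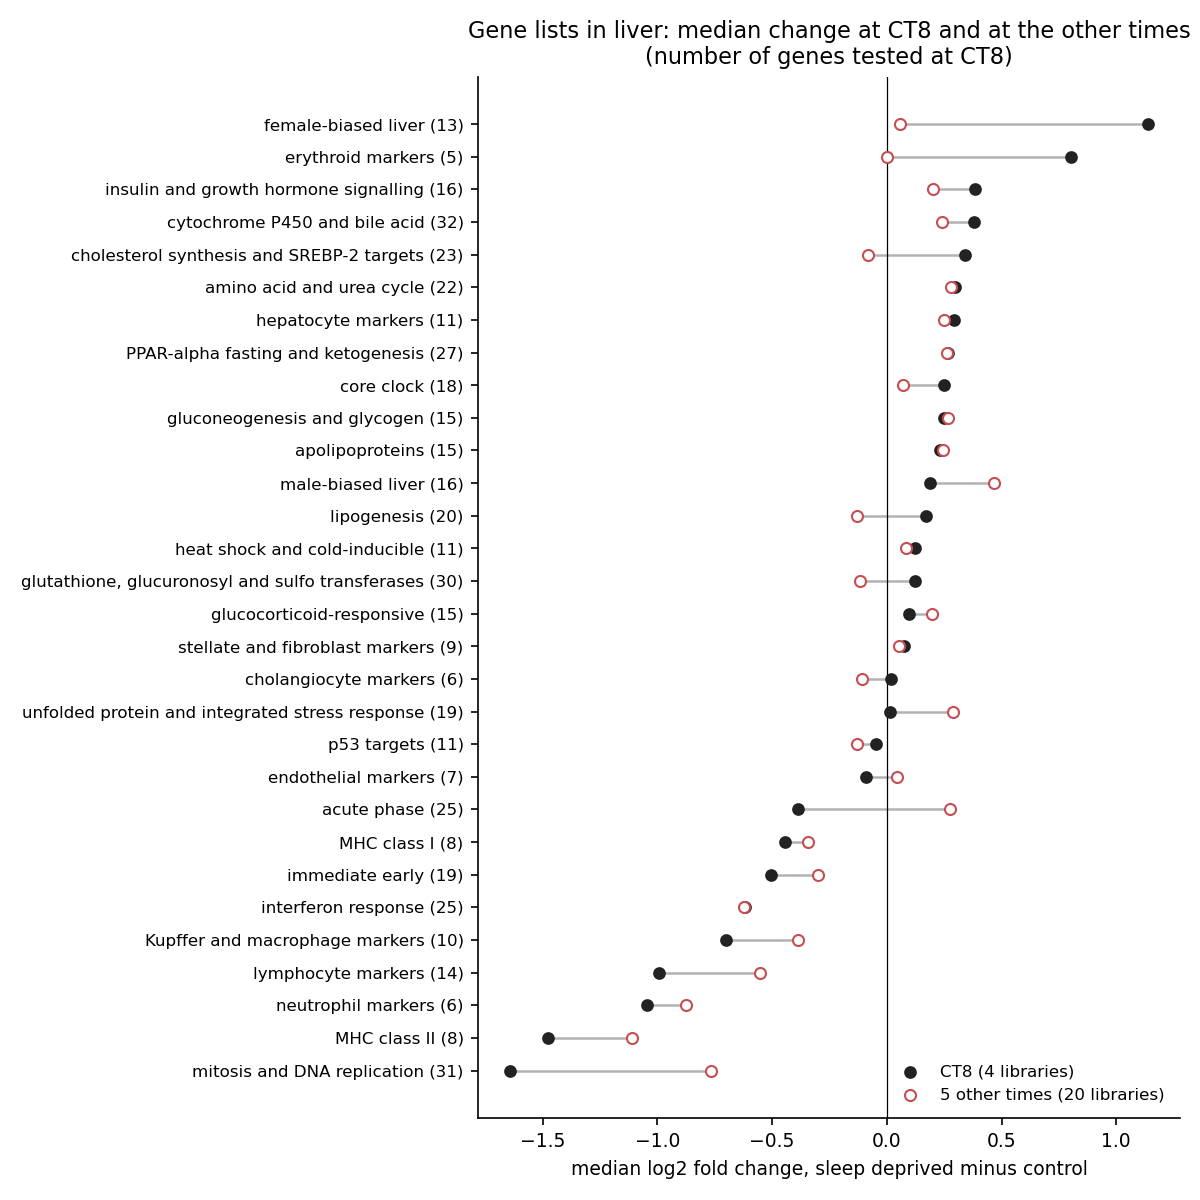
Median log2 fold change (horizontal axis, sleep deprived minus control) of gene lists at CT8 (filled) and over the 5 other times (open), ordered by the CT8 value, with the number of genes tested. The marker lists of kidney, of pancreas acinar cells and of adipocytes and gut are not drawn. Mitosis (-1.64 and -0.77) and MHC class II (-1.47 and -1.11) lie far to the left at both. The acute phase list changes side from -0.39 to 0.27. All of these lists include genes chosen at CT8.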

How the data were processed

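Total RNA from liver, kidney, forebrain and cerebellum was sequenced after ribosomal RNA depletion with a stranded kit. Per the labels and the study's methods, the authors trimmed reads with Trim Galore, aligned them to GRCm38 with HISAT2, kept alignments with a mapping quality of 60 using SAMtools, and made the deposited counts with featureCounts on the reverse strand. The table held 54833 features in 96 libraries, of which 49585 were Ensembl genes and 5248 numbered loci, and 49326 were given a symbol from the GENCODE M21 annotation. Liver libraries held 32031833 to 48851661 counts.

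Groups were taken from sample titles. Titles and tags disagree for 20 kidney libraries. Counts were filtered with filterByExpr, scaled by TMM and fitted with edgeR 4.0.16 (R 4.3.3) by its quasi-likelihood test, with 1 mean per group. P-values were adjusted by the Benjamini-Hochberg method across the whole table, and an adjusted p under 0.05 was a call. CT8 was fitted with all 24 liver libraries, the other times with their 20, and other organs on their own libraries. The steps were tested on simulated counts. Alternatives were DESeq2 1.42.0, its size factors in edgeR, library sizes alone, no filter, a replicate block, the CT8 libraries alone, and leaving out each library or time. Figures and motif counts used Python 3.11.15.

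Genes named were the members, the nearest genes outside the threshold and genes of fixed lists. The members and lists were chosen with earlier results of these data known, and the sets by role were assigned after values were seen, so neither was tested as a list. Values of some single members are not reported here.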

Additional observations from a re-analysis of the deposited data

Results flagged for a closer look

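In 4 genes both SD libraries lay on one side of both CON libraries at CT8 and on the other side at another time. SD against CON was not called at these single times. The edgeR adjusted p was 0.840 for Steap4, 0.277 for Cxcl1 and 0.610 for Emilin2. For Shank2 it was 0.631 at CT20 and 0.122 at CT24. The change of direction at the single time was not tested, and the adjusted p given below is for CT8 against the mean of the 5 other times.

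Steap4 had a log2 fold change of 0.118029 at CT16, with 184 and 184 CPM in CON and 185 and 215 CPM in SD (edgeR adjusted p of the difference 0.271). Cxcl1 had 1.09006 at CT16, with 7.15 and 3.95 CPM in CON and 13.3 and 10.3 CPM in SD (edgeR adjusted p 0.687). Emilin2 had 0.409116 at CT4, with 3.85 and 3.97 CPM in CON and 4.70 and 5.72 CPM in SD (edgeR adjusted p 0.490).

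Shank2, higher in SD at CT8, had -0.327255 at CT20, with 29.6 and 24.6 CPM in CON and 21.4 and 21.8 CPM in SD. At CT24 it had -0.553498, with 43.6 and 49.6 CPM in CON and 32.0 and 31.6 CPM in SD (edgeR adjusted p of the difference over all other times 0.271).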

How the results depend on the processing

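The number of genes called at CT8 (82) was 246 with library sizes alone, 930 with no filter on low counts, 466 by DESeq2, 0 with only the 4 CT8 libraries, and 0 to 262 when 1 library was left out. The difference between CT8 and the other times (0 called) gave 225 with no filter, 15 by DESeq2 and 0 to 1 when 1 library was left out. Over the other times, 2623 genes were called in all, 1396 without CT4, 1712 without CT12, 1457 without CT24 and 2015 to 3709 when 1 library was left out. The count of the 82 genes called there (73) was 62 to 77 without a single time and 71 to 75 without a single library.

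Members called at CT4 (24) numbered 55 with no filter, 52 by DESeq2 and 0 to 31 without 1 library, and at CT24 (17) 43 with library sizes alone, 48 with no filter, 44 by DESeq2 and 0 to 34 without 1 library. At CT12, CT16 and CT20 (0 each) no filter gave 5, 30 and 26, DESeq2 gave 15 at CT16 and 8 at CT20, and leaving out 1 library gave 0 to 15 at CT16. Members called for time of day in CON (4) numbered 12 with no filter, 8 by DESeq2 and 2 to 4 without 1 library. In kidney (1) the counts were 2 with DESeq2 size factors, 0 with library sizes alone, 18 with no filter, 13 by DESeq2 and 0 to 12 without 1 library. In cerebellum (4) they were 10 with no filter and 0 to 43 without 1 library.

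With the replicate number as a replicate block, 59 genes were called at CT8, 36 of them among the 82, and 71 of the 82 were called over the other times. The block gave 1 member at CT4, 2 at CT24, 2 in kidney and 0 in cerebellum. Deviations of same-numbered libraries correlated at -0.147 to 0.177 over the 6 times, so the numbers were not taken to pair the samples, and time of day was not fitted with the block.

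The log2 fold change of Emilin2 over the other times (-0.05) was 0.00745 without CT16 and -0.0945 to 0.00947 without 1 library, being 0.00947 without CON CT12 replicate 2 and 0.00710 without SD CT16 replicate 1, and that of Saa2 (0.36) was -0.13 without CT4, 0.0324 without SD CT4 replicate 1 and 0.583 without CON CT12 replicate 2. The causes of these changes were not tested. Each condition has 2 libraries at a time, which limits single-time counts.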

Other observations

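Time of day among the SD libraries of the 5 other times was tested after the values for CON had been seen. In SD, time of day and hours since the drum session cannot be told apart. By edgeR 34 of the 82 genes were called, where 12.2% of all genes were, and these included 17 of the 24 mitotic genes, 3 of 3 MHC class II genes and 5 of 11 leukocyte surface receptors. The difference between the SD and CON patterns over time was not tested.

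At CT8 52.4% of all genes were higher in SD and 12.3% had an unadjusted p under 0.05. Female-biased liver genes were higher in SD at CT8 in 11 of 13 cases (median log2 fold change 1.14) with 0 called by edgeR and 8 at an unadjusted p under 0.05 (1 called by DESeq2), and their median over the other times was 0.06, with 2 called higher and 3 lower. Apolipoprotein genes were higher in 15 of 15 cases at CT8 (median 0.23) with 0 called (3 at an unadjusted p under 0.05, 1 by DESeq2), and 10 were called higher over the other times. Erythroid markers were higher in 5 of 5 cases at CT8 (median 0.80) with 0 called (2 at an unadjusted p under 0.05, 0 by DESeq2), with a median of 0.00 over the other times, Hba-a2 and Hbb-bs having no count in any CT8 library. Endothelial and cholangiocyte markers had medians of -0.09 and 0.02 at CT8.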
